A study of Mus musculus with 8 samples.

Results

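The genes described here are 10 carriers of glucose and related sugars, out of 19936 genes measured in mouse kidney. They were chosen by name, with earlier results of these data known. They comprise 7 facilitative carriers of the Slc2a (GLUT) family, namely Slc2a1, Slc2a2, Slc2a3, Slc2a4, Slc2a5, Slc2a8 and Slc2a9, and 3 sodium-coupled carriers of the Slc5a (SGLT) family, Slc5a1, Slc5a2 and Slc5a10. Each had 1 probe set that named that gene alone, so all 10 were measured. Whole-kidney RNA was hybridized to 8 Affymetrix arrays, each labelled as a separate female mouse of mixed C57BL/6 - SV127 background. The labels give 4 arrays as mutant, with the genotype Pax8-rtTA;LC-1;Vhl-floxed, and 4 as control littermates, whose alleles they do not list. Pax8-rtTA places a doxycycline-dependent activator under the Pax8 promoter, which is active in kidney tubule epithelium, and LC-1 supplies Cre recombinase under that activator. From the age of 3 weeks all mice, controls included, were given 0.2 mg/ml doxycycline with 5% sucrose to drink, over 2 weeks; 1 week on ordinary water followed and kidneys were taken at 6 weeks.

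Kidney tubules recover filtered glucose in a relay of carriers. SGLT proteins in the apical membrane use the sodium gradient to draw glucose into the proximal tubule cell, Slc5a2 in the early and Slc5a1 in the late part, and GLUT proteins in the basolateral membrane let it leave towards the blood. Facilitative carriers such as Slc2a1 also feed glucose to cells that burn it, and Slc2a1 is a textbook target of the hypoxia-inducible factors (HIF), whose alpha subunits the Vhl protein marks for destruction.

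The labels and the data ran against each other, which bears on every direction given here. Vhl was 1.22-fold higher on the arrays labelled mutant (8.34 ± 0.0909) than on the arrays labelled control (8.05 ± 0.118; mean log2 signal, SD, n = 4 each; limma adjusted p = 0.0387, and 0.0558 with the replicate block). It did not pass without array 2, 3 or 4 of those labelled mutant or array 1, 2 or 3 of those labelled control (0.0785 to 0.114), and no source used here says whether its probe set lies in the floxed part. A list of 5 HIF-induced genes, Egln3, Car9, Pdk1, Vegfa and Adm, fell without exception on the arrays labelled mutant, with a mean level of 8.84 to 9.04 there and 10.7 to 11.2 on the arrays labelled control. Over all genes 4.64% were called lower (limma adjusted p under 0.05), and 8.2% had the arrays labelled mutant below without overlap. The mutant and control labels may have been exchanged in the deposited series, which would reverse every direction given here; this cannot be settled from the values alone, so all differences follow the labels as deposited. Correlation over all genes was 0.992 to 0.997 for arrays of the same label and 0.987 to 0.993 for arrays of different labels. The tissue label fitted the markers read: 6 early proximal tubule genes averaged 12.5 to 12.8 on the arrays labelled mutant and 12.1 to 12.6 on the arrays labelled control, well above the upper quartile of any array (9.08 to 9.16).

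Of the 10 carriers 1 was lower and 4 were higher on the arrays labelled mutant at a limma adjusted p under 0.05, while 5 did not pass. Over all genes tested, 4.64% were called lower and 2.59% higher, 7.23% in all. With the replicate number as a block 5 carriers passed as well, with Slc2a9 in place of Slc5a10, beside 8.31% of all genes. The gene that fell was Slc2a1, by 1.66-fold, and those that rose, by 1.24-fold to 1.52-fold, were Slc2a4, Slc2a5, Slc5a1 and Slc5a10. Split by mechanism, 2 of 7 facilitative carriers rose and 1 fell, and 2 of 3 sodium-coupled carriers rose and 0 fell. The median log2 difference was 0.12 for the facilitative and 0.42 for the sodium-coupled carriers, beside 0.03 over all genes.

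Start sites of 7 carriers were found in the RefSeq promoter table (GRCm38.p6), which holds 250 bases before and 50 after each start; Slc2a3, Slc2a4 and Slc5a2 had no entry. Because Slc2a1 is known as a HIF target, each window was searched on both strands for ACGTG and GCGTG, the core letters of the HIF response element. The windows of 3 carriers, Slc2a1, Slc2a8 and Slc5a1, held at least 1 match, and 43.8% of all 32817 windows in the table did so as well (19.6% for ACGTG and 32.4% for GCGTG). The upstream bases are shown for Slc2a1, which fell, and Slc5a1, which rose, both with matches, and for Slc2a5, which rose with no match. Slc2a8, which held a match and did not pass, and Slc5a10, which rose with no match, are not shown. Whether a match bears on direction was not tested. Capitals mark the matches, which read CACGT or CACGC where they lie on the opposite strand.
Slc2a1, chr4:119108495-119108744, plus strand: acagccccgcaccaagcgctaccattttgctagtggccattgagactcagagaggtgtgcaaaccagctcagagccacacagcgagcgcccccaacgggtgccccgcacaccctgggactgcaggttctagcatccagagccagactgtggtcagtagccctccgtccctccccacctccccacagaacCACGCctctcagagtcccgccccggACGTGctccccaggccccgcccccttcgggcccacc
Slc5a1, chr5:33103969-33104218, plus strand: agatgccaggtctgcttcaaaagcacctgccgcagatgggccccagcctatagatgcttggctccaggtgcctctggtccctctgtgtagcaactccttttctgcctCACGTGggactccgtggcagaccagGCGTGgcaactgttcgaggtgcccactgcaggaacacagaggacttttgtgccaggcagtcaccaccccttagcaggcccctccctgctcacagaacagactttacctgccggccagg
Slc2a5, chr4:150119094-150119343, plus strand: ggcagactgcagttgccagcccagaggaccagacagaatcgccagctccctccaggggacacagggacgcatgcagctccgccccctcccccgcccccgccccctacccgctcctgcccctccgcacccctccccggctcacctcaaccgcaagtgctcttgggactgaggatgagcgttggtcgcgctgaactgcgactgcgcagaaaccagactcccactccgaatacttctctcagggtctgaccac
In Slc2a1 the ACGTG match began 36 bases before the start and the GCGTG match 61 bases before it. In Slc5a1 the palindrome CACGTG gave a match on each strand, which overlap, and a GCGTG match followed 118 bases before the start. The palindromic HNF1 consensus, bound by a factor of proximal tubule and liver cells and searched on both strands, was in 0 of the 8 windows of these carriers and in 0.00914% of all windows. A match describes letters in the window and not a site in use.

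Slc2a1 encodes GLUT1, the widely expressed carrier that sits in the basolateral membrane of many nephron cells and in endothelial cells. It read 11.33, 11.23, 11.28 and 11.32 on the arrays labelled mutant, against 11.87, 11.98, 12.10 and 12.15 on the arrays labelled control. The groups did not overlap, and the arrays labelled mutant lay within 0.105 of each other. The log2 difference was -0.73 ± 0.0688 (SE; 95% interval -0.89 to -0.58; limma adjusted p = 0.000320). It passed in all 17 alternatives run, between -0.79 and -0.69.

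Levels of markers of other cell types moved beside Slc2a1, and in whole-kidney RNA fewer cells of a type and less RNA per cell cannot be told apart. All 7 endothelial markers fell, among them Kdr, Cdh5 and Flt1, with a mean level of 10.1 to 10.2 on the arrays labelled mutant and 10.8 to 11.0 on the arrays labelled control. Of 3 measured erythroid markers 1 fell, Alas2, the erythroid enzyme of haem synthesis, by 4.74-fold. The share of all genes called lower was 4.64%. Epb42, at -0.27, and Slc4a1, at 0.25 and thus in the opposite direction, did not pass (limma adjusted p = 0.110 and 0.434). The list averaged 8.21 to 8.62 on the arrays labelled mutant and 8.87 to 9.56 on the arrays labelled control. Alas2, with a log2 difference of -2.24, had by far the largest difference of these 3 and dominates that average. The deposited values give no background signal, so no floor was set. Epb42 read 6.57 to 7.15, beside array lower quartiles of 6.21 to 6.28. The part of endothelial or erythroid cells in the Slc2a1 difference was not tested. The genes whose 8 centred values lay closest to those of Slc2a1 were Syce2, Srgn and Pgk1, at a root mean square difference of 0.0673, 0.0737 and 0.0743 on the log2 scale; Pgk1 encodes the glycolytic enzyme phosphoglycerate kinase.

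**Figure D1:**
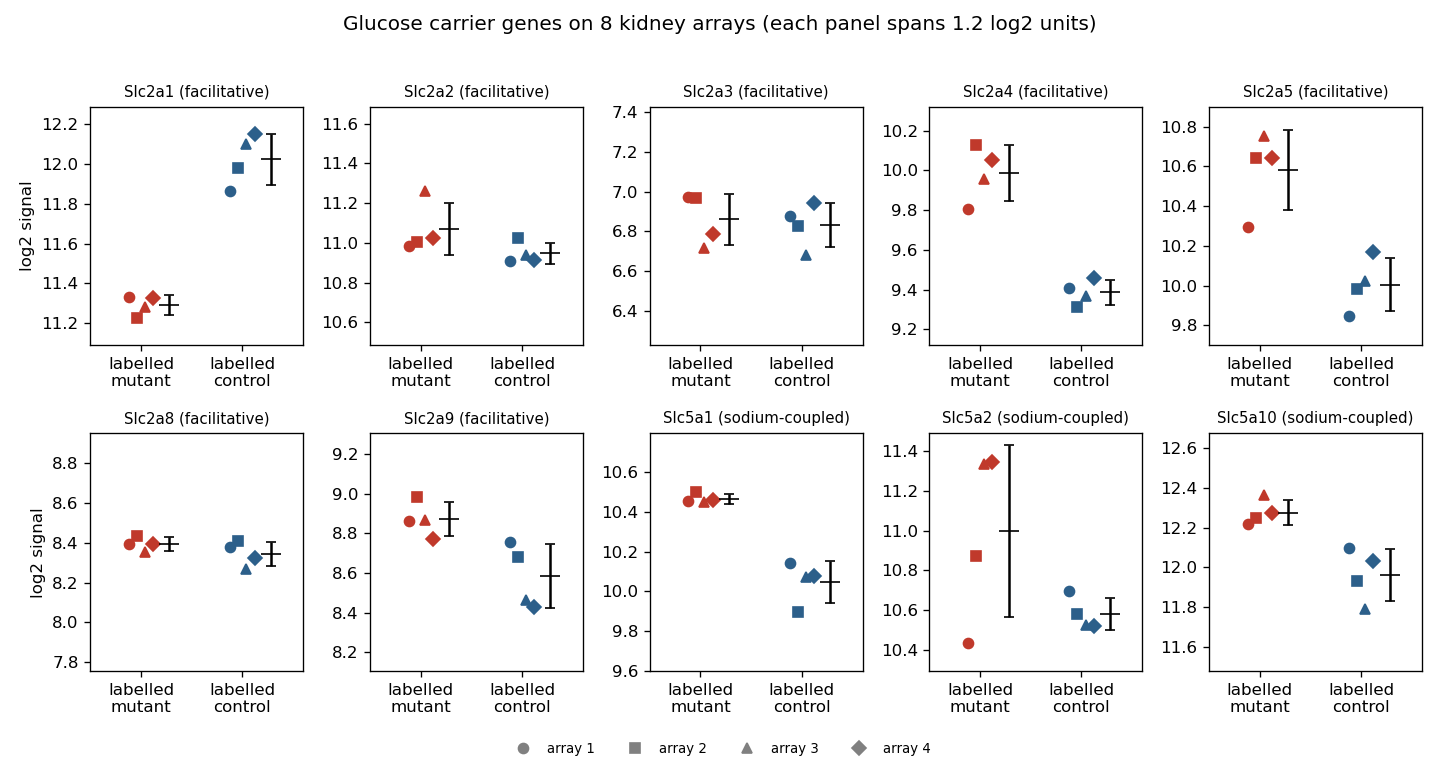
Log2 signal of each carrier on the 8 arrays, with the arrays labelled mutant (red) left of the arrays labelled control (blue), a marker shape for each array number, and bars for the mean ± SD of 4 arrays; every panel spans the same log2 range. Slc2a1 lies lower on all 4 arrays labelled mutant, Slc2a4, Slc2a5, Slc2a9, Slc5a1 and Slc5a10 lie higher on all 4, and Slc5a2 spreads over 0.91 among the arrays labelled mutant.

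Slc2a2 encodes GLUT2, the low-affinity carrier through which glucose leaves early proximal tubule cells, and is known also from liver and pancreatic beta cells. It read 10.98, 11.00, 11.26 and 11.02 on the arrays labelled mutant, against 10.91, 11.03, 10.94 and 10.91 on the arrays labelled control. The groups overlapped, and array 3 of those labelled mutant stood above the others. The log2 difference of 0.12 did not pass (95% interval -0.04 to 0.28; limma adjusted p = 0.352).

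Slc2a4 encodes GLUT4, the insulin-responsive carrier of muscle and fat. It read 9.80, 10.13, 9.96 and 10.05 on the arrays labelled mutant, against 9.41, 9.31, 9.37 and 9.46 on the arrays labelled control, so every array labelled mutant lay above every array labelled control. It rose 1.52-fold (log2 difference 0.60 ± 0.0741, SE; 95% interval 0.43 to 0.77; limma adjusted p = 0.00147) and passed in all 17 alternatives, between 0.55 and 0.66. Of 5 muscle and fat markers 0 rose and Fabp4, a fatty acid binding protein gene of fat and endothelium, fell 1.61-fold. The shares of all genes called were 2.59% higher and 4.64% lower. The muscle and fat list averaged 7.79 to 8.17 on the arrays labelled mutant and 8.03 to 8.25 on the arrays labelled control. The closest profiles to Slc2a4 were those of Lrrc52, Prom2 and Inpp5j (root mean square difference 0.0600, 0.0630 and 0.0632).

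Slc2a5 encodes GLUT5, a fructose carrier of the gut and of the late proximal tubule. It read 10.29, 10.64, 10.75 and 10.64 on the arrays labelled mutant, against 9.85, 9.98, 10.02 and 10.17 on the arrays labelled control. The groups did not overlap, with array 1 lowest in each. The rise was 1.49-fold (log2 difference 0.58 ± 0.103, SE; 95% interval 0.35 to 0.81; limma adjusted p = 0.00848). With arrays 3 and 4 of those labelled mutant left out together it was 0.46 and did not pass (adjusted p = 0.0513). Among the genes of fructose use, Khk, which encodes ketohexokinase, differed by 0.18 (adjusted p = 0.158) and Tkfc by 0.09 (0.667), so 0 of 2 measured genes passed, beside 7.23% of all genes. The closest profiles were those of Slc25a35, Myo3b and Lrrc52 (0.0826, 0.0949 and 0.0966).

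Slc2a9 encodes a carrier of urate in kidney and liver. It read 8.86, 8.98, 8.87 and 8.77 on the arrays labelled mutant, against 8.76, 8.68, 8.47 and 8.43 on the arrays labelled control, with no overlap, the lowest array labelled mutant (8.77) standing just above the highest array labelled control (8.76). The log2 difference of 0.29 (95% interval 0.10 to 0.47) did not pass by limma (adjusted p = 0.0709), and it passed with the replicate number as a block (adjusted p = 0.0395). It also passed after quantile normalization (0.0460) and without array 1 of those labelled control (0.0428).

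Slc2a3 and Slc2a8 gave the smallest differences of the 10. Slc2a3 encodes GLUT3, the high-affinity carrier of neurons and also of white blood cells, and read 6.97, 6.97, 6.72 and 6.79 on the arrays labelled mutant, against 6.88, 6.83, 6.68 and 6.94 on the arrays labelled control. The groups overlapped, and the difference was 0.03 (95% interval -0.15 to 0.21; limma adjusted p = 0.859). The mean level of Slc2a3 was above that of only 28.3% of all genes, and low signals understate a difference. Of 7 leukocyte markers 0 passed (Cd68 and Itgam passed with the replicate block, both lower on the arrays labelled mutant, at adjusted p = 0.0334 and 0.0148), with a list mean of 7.77 to 8.39 on the arrays labelled mutant and 8.09 to 8.43 on the arrays labelled control. Over all genes 7.23% passed, and 8.31% with the replicate block. Slc2a8 encodes GLUT8, which resides mainly on membranes inside the cell. It read 8.39, 8.44, 8.35 and 8.40 on the arrays labelled mutant, against 8.38, 8.41, 8.27 and 8.33 on the arrays labelled control (difference 0.05, 95% interval -0.06 to 0.16; limma adjusted p = 0.607).

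Slc5a1 encodes SGLT1, the carrier that takes up glucose and galactose in the late proximal tubule and the gut. It read 10.45, 10.50, 10.45 and 10.46 on the arrays labelled mutant, against 10.14, 9.90, 10.07 and 10.08 on the arrays labelled control. All arrays labelled mutant were higher, and they lay within 0.052 of each other. The rise was 1.34-fold (log2 difference 0.42 ± 0.0604, SE; 95% interval 0.28 to 0.55; limma adjusted p = 0.00312) and passed in all 17 alternatives, between 0.37 and 0.45. The closest profiles were those of St6galnac2, Avpi1 and Erbb4, at 0.0223, 0.0453 and 0.0544.

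Slc5a2 encodes SGLT2, the carrier of the early proximal tubule that recovers most filtered glucose and the target of the gliflozin drugs. It read 10.44, 10.87, 11.34 and 11.35 on the arrays labelled mutant, against 10.70, 10.58, 10.53 and 10.52 on the arrays labelled control. Array 1 of those labelled mutant lay below every array labelled control, while its arrays 2, 3 and 4 lay above them all. The log2 difference of 0.42 ± 0.178 (SE; 95% interval 0.02 to 0.81) was close to that of Slc5a1 but did not pass (limma adjusted p = 0.207). Without array 1 of those labelled mutant it was 0.60 and passed (adjusted p = 0.0155), without arrays 1 and 2 it was 0.76 (0.00195), and without arrays 3 and 4 it was 0.07 (0.704). The early proximal tubule list read 12.66, 12.76, 12.75 and 12.48 on the same 4 arrays labelled mutant, and 12.80, 12.88, 12.83 and 12.86 without Slc22a6, a variable member left out after its values were seen. G6pc read 13.08, 13.43, 13.56 and 13.60 on them and Slc37a4, its endoplasmic reticulum partner, 11.89, 12.18, 12.32 and 12.45, both in the order of Slc5a2. Both were chosen after their values were seen. No other measured gene of the glucose trapping and release list followed that order, nor did Slc2a2 or Khk. On the arrays labelled control neither followed Slc5a2, with G6pc at 13.23, 13.41, 13.31 and 13.17 and Slc37a4 at 12.45, 12.59, 12.40 and 12.52. The leukocyte list was higher on arrays 1 and 2 (8.39 and 8.33) than on arrays 3 and 4 (7.86 and 7.77). What part leukocytes had in the spread of Slc5a2 was not tested.

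Slc5a10 encodes SGLT5, a mannose and fructose carrier of the kidney. It read 12.22, 12.25, 12.36 and 12.27 on the arrays labelled mutant, against 12.10, 11.93, 11.79 and 12.03 on the arrays labelled control, with no overlap. The rise was 1.24-fold (log2 difference 0.31 ± 0.0718, SE; 95% interval 0.15 to 0.47; limma adjusted p = 0.0275). It did not pass with the replicate number as a block (adjusted p = 0.0604), nor without array 2, 3 or 4 of those labelled mutant (0.0642, 0.0679 and 0.0613) or array 2 or 3 of those labelled control (0.0798 and 0.0626). The closest profiles were those of Guca2b, Nr0b2 and Mtss1 (0.0428, 0.0488 and 0.0507).

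The groups did not overlap for 6 carriers, 5 with the arrays labelled mutant above and 1 below. Over all genes 6.57% had the arrays labelled mutant above and 8.2% below without overlap. The exact two-sided permutation p of each of these 6 was 0.0286, the smallest that 4 against 4 arrays allow, and it was 0.143 for Slc5a2, 0.114 for Slc2a2, 0.200 for Slc2a8 and 0.771 for Slc2a3.

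**Figure D2:**
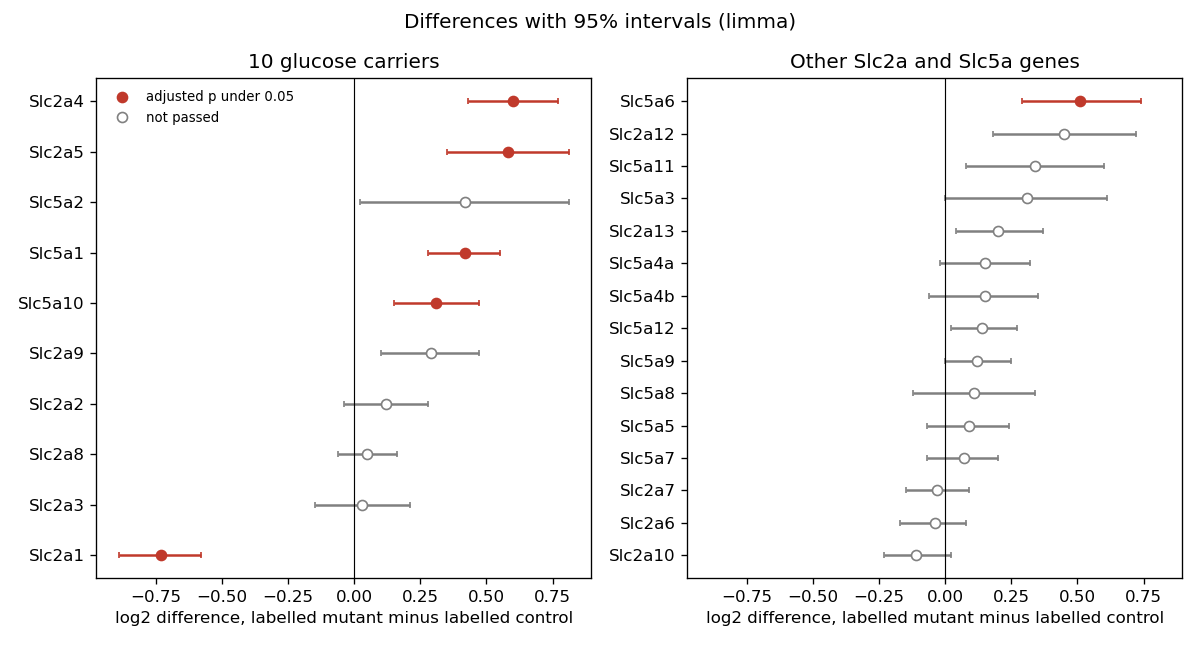
Log2 difference, arrays labelled mutant minus arrays labelled control, with 95% intervals from limma, for the 10 carriers (left) and the other 15 Slc2a and Slc5a genes (right); filled points passed at an adjusted p under 0.05. Among the carriers Slc2a1 stands alone below 0 at -0.73, and among the other family genes Slc5a6 passed, at 0.51.

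Differences between pairs of carriers were read as the change of their log2 ratio within an array, which cancels any shift common to that array; 3 pairs were compared and their exact permutation p adjusted over the 3. The log2 ratio of Slc2a1 to Slc2a2 was 0.22 ± 0.147 on the arrays labelled mutant and 1.08 ± 0.145 on the arrays labelled control (SD, n = 4 each), a difference of -0.86 with no overlap. Its exact p of 0.0286 became 0.0857 after adjustment, the smallest value that a lone extreme pair could reach here. The ratio of Slc5a2 to Slc5a1 averaged 0.53 ± 0.439 on the arrays labelled mutant and 0.53 ± 0.111 on the arrays labelled control (exact adjusted p = 1, n = 4 each), and it spread from -0.02 to 0.89 among the arrays labelled mutant. Slc2a2 against Slc5a2 gave 0.07 ± 0.368 on the arrays labelled mutant and 0.37 ± 0.106 on the arrays labelled control (difference -0.30, exact adjusted p = 0.343, n = 4 each). That difference was -0.45 without array 1 and -0.16 without array 4 of those labelled mutant, -0.56 without its arrays 1 and 2 and -0.03 without its arrays 3 and 4.

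Among the other 15 Slc2a and Slc5a genes 1 rose, 0 fell and 14 did not pass, with a median of 0.14. For this list and those below, the shares over all genes were 2.59% called higher and 4.64% called lower. The riser, Slc5a6, encodes a sodium-dependent vitamin carrier for biotin and pantothenate and was 1.43-fold higher (9.43 on the arrays labelled mutant and 8.91 on the arrays labelled control; limma adjusted p = 0.0126). Slc2a12, which encodes the facilitative carrier GLUT12, differed by 0.45 (adjusted p = 0.0567) and Slc5a11, an inositol carrier gene, by 0.34 (0.115); with the replicate block both passed (adjusted p = 0.0257 for each). In the list of glucose trapping and release 2 of 7 measured genes fell and 0 rose. Hk2, a hexokinase that HIF induces, was 2.42-fold lower and Hk1 1.27-fold lower (limma adjusted p = 0.00279 and 0.0218). Hk1 differed by -0.10 when all its probe sets were averaged (adjusted p = 0.305), and lost its call without array 2 or 4 of those labelled mutant (0.0567 and 0.0593) or array 1, 2 or 3 of those labelled control (0.0521, 0.0564 and 0.0687). G6pc, the glucose-6-phosphatase that frees glucose in proximal tubule cells, differed by 0.14 and did not pass (0.495). Of 3 measured genes of the sodium gradient 0 passed; the sodium-proton exchanger gene Slc9a3 had the largest difference, 0.30 (adjusted p = 0.0609, and 0.0334 with the replicate block).

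Regulators of the carriers were mostly outside the calls. Of 9 measured members of that list 1 fell and 0 rose, beside 4.64% of all genes called lower and 2.59% called higher. The gene that fell was Txnip, which encodes a protein that promotes removal of GLUT1 from the cell surface. Txnip was 1.42-fold lower, at 12.1 on the arrays labelled mutant and 12.6 on the arrays labelled control (limma adjusted p = 0.0274). It did not pass without array 4 of those labelled mutant (0.0595) or array 1 or 2 of those labelled control (0.0677 and 0.0603). Proximal tubule markers gave 1 riser of 6 in the early list, the amino acid carrier gene Slc6a19 (1.76-fold), and 1 of 4 in the late list, the organic anion carrier gene Slc22a7 (1.91-fold), and 0 fell in either. The late list averaged 9.33 to 9.66 on the arrays labelled mutant and 9.15 to 9.50 on the arrays labelled control, which overlap. What part the amount of proximal tubule RNA had in the rises of Slc2a5, Slc5a1 and Slc5a10 was not tested.

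Further along the nephron the thick ascending limb list had 2 of 4 genes higher, Cldn16 and Kcnj1 (1.42-fold and 1.25-fold). Of 3 distal convoluted tubule genes Trpm6 rose (1.64-fold), and of 4 collecting duct genes Aqp3 rose (1.36-fold). None of these 11 fell, beside 4.64% of all genes called lower and 2.59% called higher. Aqp3 did not pass without array 1, 2 or 4 of those labelled mutant or array 2 or 3 of those labelled control (limma adjusted p from 0.0598 to 0.106), and with the replicate block Slc12a1 and Slc12a3, the salt carrier genes of the thick ascending limb and the distal convoluted tubule, also passed (0.0456 and 0.0341). Of 3 measured podocyte genes Podxl fell 1.22-fold and 0 rose. Nphs1 and Wt1 differed by 0.17 and 0.10 and did not pass (limma adjusted p = 0.147 and 0.277). For both, every array labelled mutant lay above the arrays labelled control, as it did for 6.57% of all genes.

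**Figure D3:**
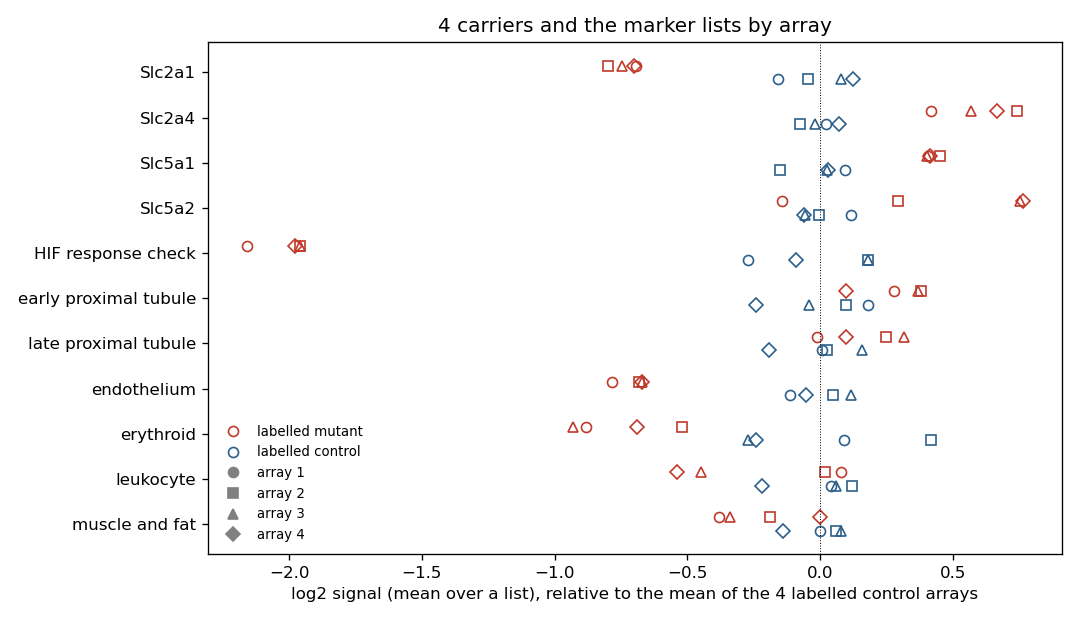
Log2 signal of 4 carriers and mean log2 signal of the marker lists on each array, relative to the mean of the 4 arrays labelled control; red symbols are arrays labelled mutant, blue symbols arrays labelled control, and shapes give the array number. Slc2a1, the HIF response genes and the endothelial markers all lie lower on the 4 arrays labelled mutant. So does the erythroid list, whose average is dominated by Alas2. The early and late proximal tubule lists overlap between the groups. The early list does not overlap without the variable member Slc22a6, which was left out only after its values were seen (12.80 to 12.88 on the arrays labelled mutant and 12.52 to 12.69 on the arrays labelled control).

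**Figure D4:**
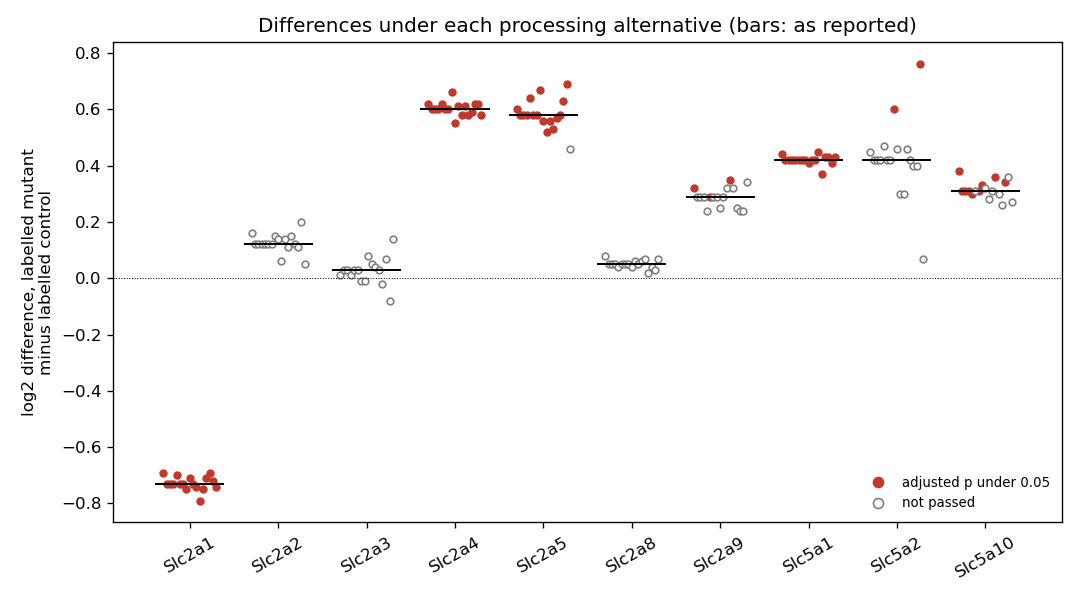
Log2 difference of each carrier, arrays labelled mutant minus arrays labelled control, under each processing alternative (points) and as reported (bars); filled points passed at an adjusted p under 0.05. Slc2a1, Slc2a4 and Slc5a1 passed throughout, and Slc5a2 ranged from 0.07 to 0.76 depending on which arrays were left out.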

How the data were processed

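Whole-kidney RNA of 8 mice was labelled with biotin for Affymetrix arrays, per the labels' protocols. The authors deposited a table of log2 values for 35556 probe sets (1.92 to 14.66, array medians 7.55 to 7.58); the submitters' processing notes name limma, and the normalization, background correction and build are not given in the sources used here. The table gives no background signal; absence was therefore not called, and low signals understate a difference.

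Probe sets naming 1 gene (21789) were updated to GRCm38.p6 symbols (21701 matched, 88 kept the platform's symbol). A further 1621 named several genes and 12146 were not listed. The probe set with the highest mean stood for each of 19936 genes. Values were not filtered or renormalized. Groups were compared by lmFit and eBayes (limma 3.58.1, R 4.3.3; 8 arrays, the label as factor, two-sided), Benjamini-Hochberg adjusted over all genes. The fit was tested on simulated data. The number of arrays limits the precision: the median standard error was 0.0718.

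The 10 carriers, the gene lists and the tests were chosen with earlier results of these data known. All carriers are named; from each list the text names called members with the largest change, and other members it names were chosen after their values were seen. For each called carrier the 3 genes with the closest centred values are named, skipping clone and predicted names. The series' design text calls the controls littermates without saying which mice share a litter, so p-values measure the spread between these arrays and take no account of litters. Array numbers 1 to 4 are shared by the groups, and deviations from group means correlated at 0.138, 0.153, 0.295 and 0.175 between same-numbered arrays. Between different-numbered arrays of the 2 groups the correlation was -0.193 to 0.111, below every same-numbered value. The labels hold the numbers but do not say what a number marks, so such a pairing rests on the data. The main fit and the exact permutations of 4 against 4 arrays therefore left the arrays unpaired. A fit with the number as a block was run beside them, and its values are given where they change a call. Alternatives were quantile normalization, median centring, the upper 60% of probe sets by mean, trend and robust eBayes, array weights, the replicate block, probe set means, a threshold of 0.01 and leaving out arrays. Protein sequences were not used here.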

Additional observations from a re-analysis of the deposited data

Results flagged for a closer look

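Slc2a2 on array 3 of those labelled mutant read 11.26, set apart from the other 3 arrays of its group by 0.24, which is 0.855 of the group's whole range and more than Dixon's criterion allows for 4 arrays. Of 20 carrier and group combinations examined this was the only one so marked, and chance marks about 1 in 20.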

How the results depend on the processing

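Slc2a1, Slc2a4 and Slc5a1 kept their direction and call in all 17 alternatives, and Slc2a5 in 16. Slc5a10 passed in 9 and was never reversed (0.26 to 0.38), and calls of Slc2a9 and Slc5a2 appeared in 3 and 2. The count of carriers lower was 1 in every alternative; that of carriers higher was 3 to 5 with 1 array left out and 2 with mutant arrays 3 and 4 left out. Over all genes 1442 passed, 602 at an adjusted p under 0.01 and 902 to 1368 with 1 array left out, the count falling by over 1.5 times without mutant array 2 (917), control array 2 (903) or control array 3 (902). The uncalled difference of Slc2a3 turned sign, from -0.02 to 0.08 with 1 array left out and to -0.08 without mutant arrays 1 and 2, and it had no value in the upper 60% of probe sets. The change of Slc5a2 relative to Slc5a1, -0.0013 as reported, was 0.0087 after quantile normalization, -0.12 to 0.18 with 1 array left out and 0.35 without mutant arrays 1 and 2 (exact adjusted p from 0.133 to 1 over the alternatives). For the ratios, the replicate block as a sign flip of the 4 pairs gave -0.86 for Slc2a1 against Slc2a2 (exact adjusted p = 0.375) and cannot go below an unadjusted 0.125. With the replicate block in limma Slc2a9 passed (0.0395), Slc5a10 did not (0.0604), and no other carrier changed its call. Among other genes named, Slc22a7, Kcnj1, Podxl and Fabp4 lost their calls without mutant arrays 1 and 2 (limma adjusted p = 0.0913, 0.0563, 0.0652 and 0.0633). So did Vhl, Txnip and Aqp3 (0.0661, 0.104 and 0.22). Without mutant arrays 3 and 4, Ybx2, Hk1 and Vhl lost theirs (0.0619, 0.0606 and 0.123), and the uncalled G6pc and Tkfc turned to -0.02 and -0.07. The causes of these shifts were not tested beyond the arrays left out.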

Other observations

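The genes next to the carriers in the RefSeq annotation (GRCm38.p6, used only for their order) were read as well, chosen once the values were known. Of 20 measured protein-coding neighbours 1 rose and 1 fell, beside 7.23% of all genes called in either direction. Ybx2, next to Slc2a4, rose with a log2 difference of 0.37 (limma adjusted p = 0.0108), and Tgfb1i1, next to Slc5a2, fell by 0.45 (0.00567). Slc2a5 lies next to Slc2a7, another member of its family, which differed by -0.03 (0.774). The neighbours of Slc2a1, Lao1 and Zfp691, differed by 0.08 and 0.11 and those of Slc5a1, Ywhah and Spon2, by 0.03 and 0.10, and none of these passed (0.358 to 0.813).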
